A study of Mus musculus with 11 samples.

Results

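The accessible sites around 7 mouse genes, Rasef, Svip, Sh2d4a, Arhgap32, Slain1, Ccdc149 and Rgs20, were followed in sorted luminal and basal mammary epithelial cells. The genes were chosen on these same libraries, because their promoter peaks were more accessible in luminal than in basal cells. Their sites were all peaks that overlapped the gene body or lay within 50 kb of the gene's transcription start site (TSS) in mm10, each given to the nearest of the 7 genes, which gave 80 of the 153396 merged peaks of the series. There were 11 peaks at Rasef, 6 at Svip, 15 at Sh2d4a, 21 at Arhgap32, 9 at Slain1, 5 at Ccdc149 and 13 at Rgs20. The question addressed was whether each locus as a whole was more accessible in luminal cells, or its promoter alone. Since the luminal against basal contrast chose the genes, its values are a description and carry no test.

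Open chromatin was profiled by ATAC-seq, which tags DNA that a transposase can reach, in cells of C57BL/6 females at 5 weeks of age that carried an E-cadherin-GFP reporter. Terminal end buds (TEBs), the bulbous growing tips of the pubertal ductal tree, and the ducts behind them were dissected apart under fluorescence. From both, Lin- CD29+ CD24+ cells were sorted as luminal (Ecad-GFP hi) or basal (Ecad-GFP lo), so the reporter level helped to define the lineages in all groups. Pools of mice gave 3 libraries each of luminal duct, luminal TEB and basal TEB cells, and 2 of basal duct cells (numbered 1 and 3). In such bulk libraries, fewer cells with an open site and less accessibility per cell cannot be told apart.

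Luminal cells line the lumen of the duct, and basal cells, which are contractile and rest on the basement membrane, surround them. An accessible promoter marks a start site that can be used, while accessible sites within introns or between genes often mark enhancers, which act on a promoter from a distance. A gene can therefore have a lineage-restricted promoter within a locus whose other sites are shared, or a whole block of sites that open together.

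The 7 genes act in different processes. Rasef encodes an unusual Rab GTPase with calcium-binding EF-hands, Arhgap32 a GTPase-activating protein best studied in neurons, and Rgs20 a regulator of G protein signalling. Sh2d4a encodes an SH2 domain adaptor, Slain1 a protein of growing microtubule plus ends, Svip a small VCP-interacting protein that inhibits ER-associated degradation, and Ccdc149 a coiled-coil protein.

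The promoters differed in base composition. RefSeq promoters (GRCm38.p6, 250 bases before to 50 bases after a start) were matched for 5 of the 7 genes. Those of Rasef and Slain1 are shown because they are rich in CpG, with 38 and 25 CpG in 300 bases, and that of Arhgap32 because it holds 2 and starts inside the gene. Rasef lies on the minus strand (chr4:73790553-73790852), Slain1 on the plus strand (chr14:103649978-103650277) and Arhgap32 on the plus strand (chr9:32224025-32224324), and each is printed in the direction of the gene.
Rasef promoter: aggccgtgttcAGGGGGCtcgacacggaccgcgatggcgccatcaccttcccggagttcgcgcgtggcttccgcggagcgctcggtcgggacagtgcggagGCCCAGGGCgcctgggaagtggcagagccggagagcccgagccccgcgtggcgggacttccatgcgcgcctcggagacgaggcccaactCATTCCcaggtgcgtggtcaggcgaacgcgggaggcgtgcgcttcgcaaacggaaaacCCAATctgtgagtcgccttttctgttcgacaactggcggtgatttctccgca
Slain1 promoter: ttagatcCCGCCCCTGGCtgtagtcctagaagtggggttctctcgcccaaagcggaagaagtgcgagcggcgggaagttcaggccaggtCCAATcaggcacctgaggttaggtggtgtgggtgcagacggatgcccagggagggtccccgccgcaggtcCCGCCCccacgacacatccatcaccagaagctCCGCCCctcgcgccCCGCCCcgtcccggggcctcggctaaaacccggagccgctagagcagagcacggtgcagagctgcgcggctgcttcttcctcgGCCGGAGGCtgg
Arhgap32 promoter: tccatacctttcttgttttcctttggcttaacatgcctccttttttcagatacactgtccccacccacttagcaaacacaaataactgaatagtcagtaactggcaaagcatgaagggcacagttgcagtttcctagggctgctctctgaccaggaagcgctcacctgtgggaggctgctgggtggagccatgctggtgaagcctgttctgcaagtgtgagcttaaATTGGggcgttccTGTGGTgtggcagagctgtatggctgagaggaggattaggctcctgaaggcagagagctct
Capitals in these and the next sequences mark exact matches, on either strand, to 13 short motifs named by the factors that bind them: CCGGAA for the ETS family, AGATAA for the zinc-finger GATA family, TGTTTAC for forkhead (FOX) proteins, TGANTCA for the AP-1 dimers of Fos and Jun, GGAATG for the TEAD family, AACCNGTT for grainyhead-like (GRHL) proteins, GCCNNNGGC for the AP-2 family (TFAP2), TTGGCA as a partial site of the NFI family, TGTGGT for the RUNX family, TTCNNNGAA for the STAT family, GGGCGG for the SP family, CCAAT for the trimeric factor NFY and AGGGGGC for the core of the CTCF site. Adjoining or overlapping matches form 1 run of capitals. Of the 5 RefSeq promoters, 4 held an NFY match (37.4% of all 32851 RefSeq promoters did), 3 held a TFAP2 match (16.6% of all) and 3 a RUNX match (16.8% of all). Matches were to SP in 2 (35.7% of all), TEAD in 2 (14.7%), NFI in 1 (14.1%) and the CTCF core in 1 (10.6%). No ETS (14.9% of all), GATA (11.2%), FOX (3.65%), AP-1 (7.81%), GRHL (2.09%) or STAT (8.30%) letters were in these 5 windows.

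The central 300 bases of 4 peaks away from a TSS are shown, in mm10 and on the plus strand, because these peaks had the largest or the smallest luminal over basal difference in ducts of their locus among peaks above the median level. The Sh2d4a peak lies upstream of the gene (chr8:68241773-68242072), as does the Slain1 peak (chr14:103626928-103627227). Both others are intronic, that of Rgs20 (chr1:5015407-5015706) and that of Arhgap32 (chr9:32160463-32160762), the last being the 1 basal-higher site of the 4. Names give the distance of the peak's centre from the 5′ end of the gene, negative for upstream.
Sh2d4a -34.6 kb: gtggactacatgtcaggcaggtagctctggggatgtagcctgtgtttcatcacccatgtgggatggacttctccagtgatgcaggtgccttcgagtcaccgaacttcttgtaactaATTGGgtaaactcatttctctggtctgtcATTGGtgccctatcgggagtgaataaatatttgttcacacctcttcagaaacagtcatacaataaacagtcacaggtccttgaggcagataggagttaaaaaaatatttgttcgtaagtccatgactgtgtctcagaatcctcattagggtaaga
Slain1 -23.1 kb: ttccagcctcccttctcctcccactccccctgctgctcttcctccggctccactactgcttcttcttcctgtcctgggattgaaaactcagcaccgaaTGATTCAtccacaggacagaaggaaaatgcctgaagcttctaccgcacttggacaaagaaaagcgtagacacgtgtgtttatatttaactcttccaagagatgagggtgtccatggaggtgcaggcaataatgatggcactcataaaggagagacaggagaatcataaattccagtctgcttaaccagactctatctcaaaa
Rgs20 +54.7 kb: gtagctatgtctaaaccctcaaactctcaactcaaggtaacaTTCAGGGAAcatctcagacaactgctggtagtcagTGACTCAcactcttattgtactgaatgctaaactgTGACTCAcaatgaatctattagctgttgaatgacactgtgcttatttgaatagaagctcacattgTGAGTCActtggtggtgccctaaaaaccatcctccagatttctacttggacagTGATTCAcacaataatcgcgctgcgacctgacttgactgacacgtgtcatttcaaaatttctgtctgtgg
Arhgap32 +44.5 kb: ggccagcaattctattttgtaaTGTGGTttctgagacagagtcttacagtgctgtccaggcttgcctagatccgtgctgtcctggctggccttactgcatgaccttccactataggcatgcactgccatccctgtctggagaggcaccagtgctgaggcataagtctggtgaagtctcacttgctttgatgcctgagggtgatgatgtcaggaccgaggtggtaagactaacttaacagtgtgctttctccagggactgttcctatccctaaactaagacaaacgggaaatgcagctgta
The Rgs20 window held 5 matches, 4 to AP-1 and 1 to STAT. The Sh2d4a window held 2 NFY matches, the Slain1 window 1 AP-1 match and the Arhgap32 window 1 RUNX match. Over the 69 member peaks farther than 500 bp from any protein-coding TSS, AP-1 letters were in 27.5% of central 300-base windows against 28.2% of all 136766 such peaks. GATA letters were in 18.8% of them against 14.1%, NFY in 40.6% against 33.5%, RUNX in 18.8% against 24.0%, TEAD in 18.8% against 22.4% and FOX in 5.80% against 7.06%. ETS and CTCF core letters were in none of the 69, against 4.68% and 4.98% of all. These peaks were also somewhat narrower than all such peaks, with a median width of 289 against 319 bp, and lower in GC, with a median of 45.6% against 48.4%.

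Counts in peaks per library numbered 6816197 to 9986384 for basal duct, 1821942 to 2489582 for basal TEB, 4650216 to 5561051 for luminal duct and 2960093 to 3738324 for luminal TEB, so that the median peak had 6 counts in a basal TEB library and 15 or 20 in a basal duct library. The share of counts in peaks within 500 bp of a TSS was 31.1 to 35.7% in basal TEB and 40.1 to 42.7% in basal duct. Against its markers, the labelled lineage held: the promoter peaks of 6 of 6 basal markers were higher in basal cells of both structures, and those of 7 luminal markers were higher in luminal cells in 6 cases in ducts (Krt8 was not) and in 7 in TEBs. Summed over the luminal marker promoters, basal duct libraries read 160 to 189 CPM (counts divided by the TMM-scaled size of the library, the unit used throughout) and basal TEB libraries 79.8 to 98.2, against 298 to 367 in luminal duct and 278 to 336 in luminal TEB. Of other cell types, the measured promoters were 2 of 5 fibroblast markers (summed CPM between 28.5 and 35.3 for basal duct, 12.8 and 17.6 for basal TEB, 14.4 and 15.7 for luminal duct, and 7.90 and 10.7 for luminal TEB), 1 of 5 endothelial markers (13.7 to 18.5, 9.71 to 15.1, 3.39 to 4.66 and 2.73 to 5.60 in the same order), 2 of 5 immune markers (11.3 to 13.3, 5.62 to 9.78, 12.5 to 14.2 and 9.29 to 14.5) and 1 of 5 adipocyte markers (2.39 to 5.24, 0.00 to 3.99, 0.64 to 1.29 and 0.33 to 0.82). The immune promoters went opposite ways, since Csf1r, the receptor for macrophage colony-stimulating factor, had mean CPM of 1.37, 0.857, 8.56 and 6.80 in that order (luminal over basal log2 fold changes of 2.63 and 2.88 in ducts and TEBs, both called), whereas Coro1a, an actin-binding protein of leukocytes, had -1.04 (called) and -0.40. The part of other cell types in the results was not tested.

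At the promoters, all 7 genes were more accessible in luminal cells, in ducts and in TEBs, and no basal library reached any luminal one (the plot of promoter CPM by library). This is the contrast that chose them. Every CPM below was scaled over the 11 libraries, whereas each log2 fold change (luminal over basal, or TEB over duct) was fitted within its own pair of groups, with n = 2 for basal duct and n = 3 for the others.

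**Figure D1:**
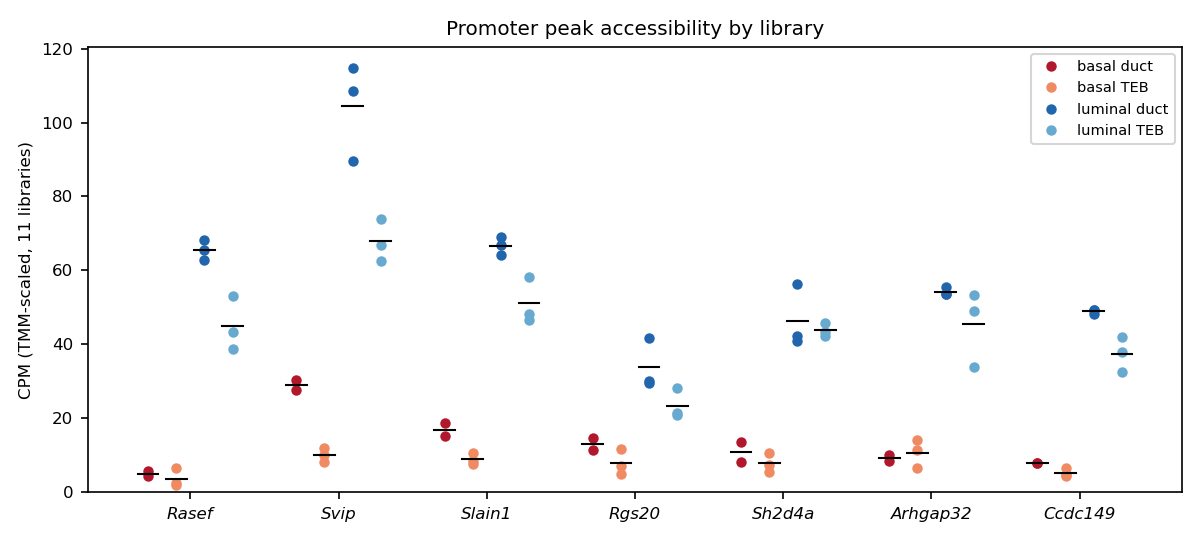
Accessibility of the promoter peak of each gene in each of the 11 libraries (CPM, linear axis). Points are libraries and short bars are group means. Luminal points lie above basal points for every gene, with the largest fold at Rasef, whose basal libraries read 1.96 to 6.65 CPM and luminal ones 38.9 to 68.3 CPM.

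Among the genes of GTPase signalling, the Rasef promoter peak (4:73790262-73791283) had 4.33 and 5.85 CPM in the basal duct libraries, 2.56, 1.96 and 6.65 in basal TEB, 62.8, 68.3 and 65.6 in luminal duct and 43.4, 53.0 and 38.9 in luminal TEB. Its luminal libraries all stood far above its basal ones, with log2 fold changes of 3.77 ± 0.20 (SE) in ducts and 3.59 ± 0.49 in TEBs. The Arhgap32 promoter peak (9:32223711-32224725), which lies at an internal start 108 kb inside the gene, had 10.1 and 8.63 CPM in basal duct, 6.65, 14.1 and 11.5 in basal TEB, 53.6, 55.4 and 53.5 in luminal duct and 34.0, 53.3 and 49.1 in luminal TEB. Basal duct and basal TEB overlapped there, while luminal libraries lay apart from both, by 2.58 ± 0.11 and 2.05 ± 0.37 on the log2 scale. The Rgs20 promoter peak (1:5019087-5020203), also at an internal start, had 14.7 and 11.6 CPM in basal duct, 11.8, 7.04 and 4.88 in basal TEB, 29.7, 30.2 and 41.7 in luminal duct and 20.9, 28.1 and 21.4 in luminal TEB. This was the smallest gap of the 7, 1.41 ± 0.23 in ducts and 1.59 ± 0.37 in TEBs on the log2 scale.

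The Sh2d4a promoter peak (8:68276049-68277742) had 8.20 and 13.6 CPM in basal duct, 10.7, 5.48 and 7.54 in basal TEB, 56.4, 42.2 and 40.8 in luminal duct and 45.8, 42.4 and 43.5 in luminal TEB. Its luminal duct and luminal TEB values overlapped, and the log2 fold changes over basal cells were 2.18 ± 0.38 and 2.49 ± 0.27. At Slain1 the promoter peak (14:103649873-103651107) had 15.2 and 18.6 CPM in basal duct, 7.67, 8.61 and 10.6 in basal TEB, 68.9, 64.2 and 66.8 in luminal duct and 46.7, 48.4 and 58.3 in luminal TEB. TEB libraries lay below duct libraries of the same lineage there, and the lineage gap was 2.05 ± 0.15 in ducts and 2.5 ± 0.16 in TEBs on the log2 scale.

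The Svip promoter peak (7:52005470-52006751) was the strongest of the 7, with 30.4 and 27.7 CPM in basal duct, 8.18, 10.2 and 12.0 in basal TEB, 89.7, 109 and 115 in luminal duct and 67, 74.0 and 62.6 in luminal TEB. All 4 groups were separate, and the lineage gap was 1.90 ± 0.13 in ducts and 2.73 ± 0.17 in TEBs on the log2 scale. Last, the Ccdc149 promoter peak (5:52470718-52471703) had 7.98 and 7.86 CPM in basal duct, 4.6, 6.65 and 4.43 in basal TEB, 49.4, 48.3 and 49.4 in luminal duct and 37.9, 42.1 and 32.6 in luminal TEB. Its duct replicates agreed closely, and its log2 fold changes were 2.69 ± 0.02 and 2.81 ± 0.20. The first SE rests on 2 basal duct libraries with 70 and 51 counts and leaves out their counting error. Leaving out 1 library gave 2.62 to 2.69 in ducts.

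How strong these promoters were depended on the set they were ranked in. Among 13740 distinct promoter peaks ordered by the log2 fold change in ducts, Rasef ranked 82, Ccdc149 208, Arhgap32 223, Sh2d4a 268, Slain1 295, Svip 320 and Rgs20 470. Among the 6870 peaks above the median promoter level, Arhgap32 ranked 2 in ducts, Sh2d4a 5, Slain1 6 and Svip 8, while Rasef, Ccdc149 and Rgs20 lay below that level. The next peak after Svip was that of Csf2ra, at 1.85 against 1.90 on the log2 scale. In TEBs the ranks above the median level were 2 for Svip, 5 for Slain1, 6 for Sh2d4a and 19 for Arhgap32. A luminal-higher promoter was not the rule in the genome: 11.3% of promoter peaks were called luminal-higher and 43.7% basal-higher in ducts (median log2 fold change -0.31), and 15.1% and 9.72% in TEBs (median 0.09).

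Away from the promoters the 7 loci parted ways. In ducts, 47 of the 73 other member peaks were called luminal-higher (false discovery rate, FDR, of 0.05 by the edgeR exact test) and 16 basal-higher, beside 36.6% and 31.8% of all peaks of the series. In TEBs 20 were luminal-higher and 10 basal-higher, beside 20.8% and 16.6% of all peaks. Among peaks over 500 bp from a TSS, the shares were 39.6% luminal-higher and 30.3% basal-higher in ducts and 21.5% and 17.4% in TEBs over the series, and 45 and 15 of the 69 members in ducts and 19 and 10 in TEBs. As the lineage contrast chose the genes, nothing is read from these counts for the group as a whole. The median log2 fold change of the 73 was 1.38 in ducts and 0.72 in TEBs, beside 0.10 and 0.07 over all peaks.

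**Figure D2:**
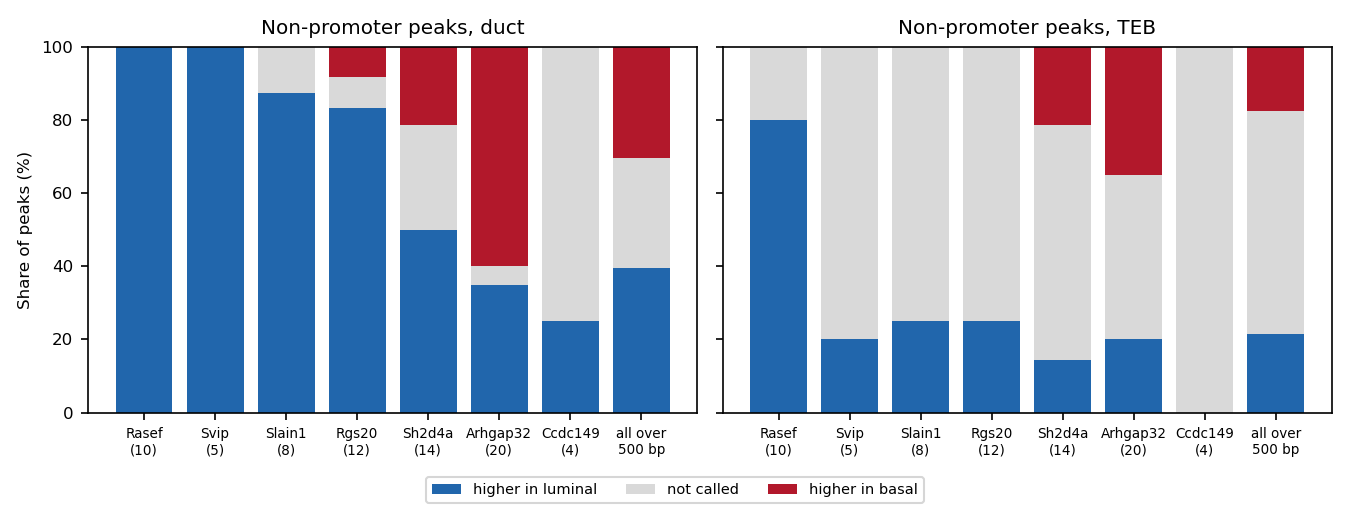
Calls at the peaks of each locus other than the promoter, in ducts (left) and in TEBs (right), as a share of the peaks (%, FDR 0.05), with the number of peaks in brackets and all peaks over 500 bp from a TSS as the last bar. Colours give peaks higher in luminal cells, not called and higher in basal cells. Rasef, Svip, Slain1 and Rgs20 are mostly luminal-higher in ducts, Arhgap32 has more basal-higher (12) than luminal-higher (7) peaks, and Ccdc149 has 1 called peak of 4.

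The same calls can be put as the share of a locus's other peaks that were luminal-higher. Over 13102 genes with a promoter peak and at least 5 other peaks, the median share was 33.3% in ducts and 18.2% in TEBs. Over the 1304 genes whose promoter was luminal-higher in ducts it was 50%, and over the 1861 in TEBs 28.6%. Rasef and Svip had all their other peaks luminal-higher in ducts, Slain1 87.5%, Rgs20 83.3%, Sh2d4a 50% and Arhgap32 35.0%. Ccdc149, with 1 of 4 peaks, had 25%, but has too few other peaks to be among the 13102 genes. In TEBs the share was 80.0% at Rasef, 25% at Slain1 and Rgs20, 20% at Svip and Arhgap32, 14.3% at Sh2d4a and 0% at Ccdc149. Rasef was thus the one locus of the 7 with over 50% of its other peaks luminal-higher in both structures, though not with filterByExpr, which left 4 of 10 in TEBs.

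**Figure D3:**
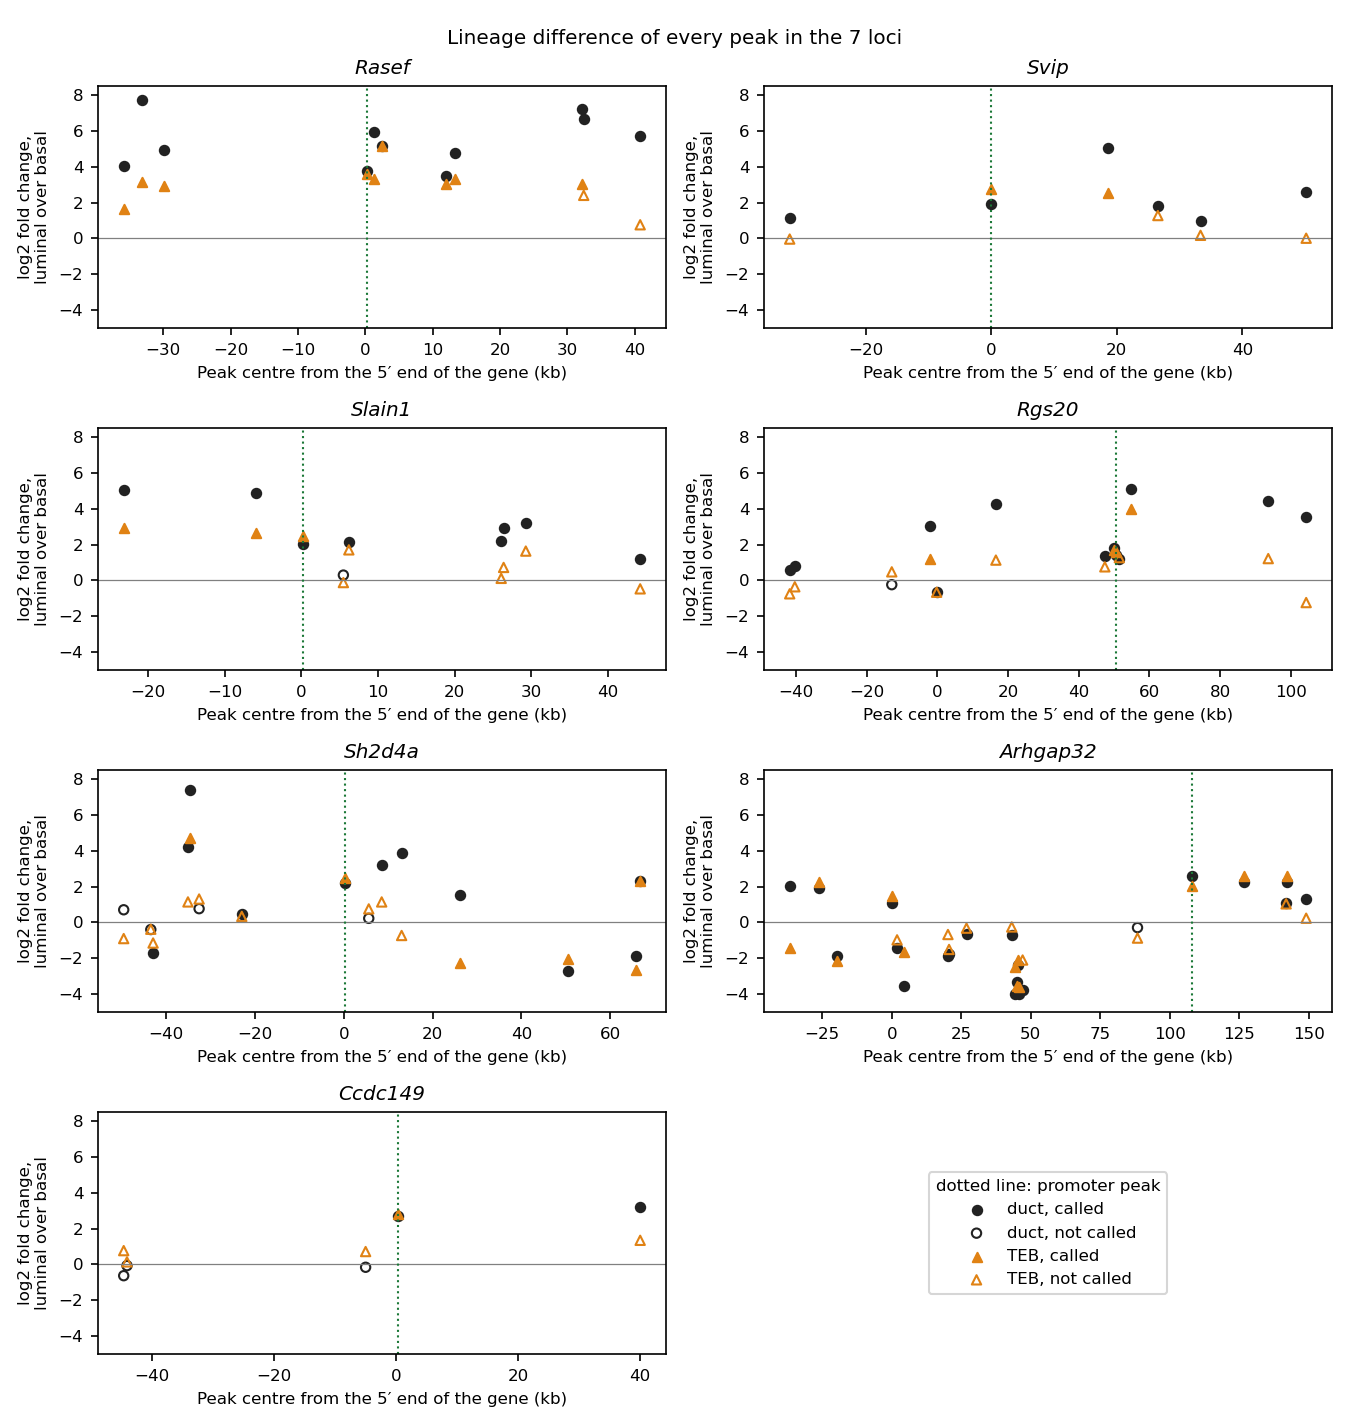
Luminal over basal log2 fold change of each member peak in ducts and in TEBs against the distance of its centre from the 5′ end of its gene (kb, negative for upstream), with filled symbols for called peaks and a dotted line at the promoter peak. Points above 0 are more accessible in luminal cells. All Rasef points are above 0, and a run of 11 points at Arhgap32 between +1 and +50 kb is below 0 in both structures.

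Rasef (4:73714579-73790994, minus strand) was luminal over its whole locus. All 10 other peaks were luminal-higher in ducts, with log2 fold changes from 3.50 to 7.75, and 8 were in TEBs (4 when weakly covered peaks were removed with filterByExpr). The peak at +1.3 kb, in an exon, had 0.46 and 0.31 CPM in basal duct, 2.05, 1.96 and 2.22 in basal TEB, 17.8, 30.2 and 24.1 in luminal duct and 18.9, 25.7 and 18.1 in luminal TEB. It was all but closed in basal duct cells, with log2 fold changes of 5.93 ± 0.25 in ducts and 3.31 ± 0.16 in TEBs. Deeper in the first part of the gene, the intronic peak at +13.3 kb had 0.34 and 0.46 CPM in basal duct, 0.00, 0.39 and 1.77 in basal TEB, 8.27, 13.2 and 10.3 in luminal duct and 6.59, 8.74 and 7.90 in luminal TEB. Of the better covered Rasef peaks it had the smallest duct difference, and it was still 4.75 ± 0.21 on the log2 scale and 3.31 ± 0.67 in TEBs.

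Several Rasef peaks had no basal duct count at all. At +32.4, +32.2 and -33.1 kb, both basal duct libraries held 0 counts, and luminal duct cells were at least 10.4-, 15.2- and 22.1-fold higher against a floor of 3 counts over the group. Those fitted values depend on the prior count, and with them at their bound the median of the 10 peaks in ducts was 4.61 in place of 5.41. Summed over the 10 peaks, luminal duct cells had 89.1 ± 11.4 CPM (SD) and basal duct cells 2.62 ± 0.65, a ratio of 34.0 against 12.9 at the promoter. In TEBs the ratio of the sums was 6.85 and that of the promoter 12.1.

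Arhgap32 (9:32116136-32268446, plus strand) was split along its length. The 11 intronic peaks between +1 and +50 kb were all basal-higher in ducts, with a median log2 fold change of -2.38, and 5 were in TEBs. The smallest of these duct differences were at +26.9 kb (-0.66) and +43.2 kb (-0.69). The strongest lineage difference of that stretch among better covered peaks was at +44.5 kb (9:32160293-32160934, central sequence above), which had 28.5 and 25.1 CPM in basal duct, 11.8, 24.7 and 13.7 in basal TEB, 0.85, 1.49 and 2.58 in luminal duct and 3.84, 3.28 and 1.65 in luminal TEB. Luminal cells were nearly closed there, with log2 fold changes of -3.96 ± 0.36 in ducts and -2.5 ± 0.45 in TEBs.

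Downstream of this block the direction turned. Beyond +100 kb, where the internal promoter lies, 4 of 4 other peaks were luminal-higher in ducts and 2 in TEBs. The intronic peak at +126.7 kb had 0.34 and 1.70 CPM in basal duct, 1.02, 0.39 and 3.10 in basal TEB, 3.82, 3.55 and 6.02 in luminal duct and 9.33, 10.1 and 7.57 in luminal TEB. Its luminal values exceeded its basal ones in each structure, by 2.28 ± 0.74 and 2.57 ± 0.61 on the log2 scale. The peak at the 5′ start of the gene was also luminal-higher, but by less, with 9.85 ± 0.88 CPM in basal duct, 6.79 ± 1.03 in basal TEB, 20.3 ± 1.3 in luminal duct and 19.2 ± 2.11 in luminal TEB, and log2 fold changes of 1.11 ± 0.10 and 1.49 ± 0.14. In all, the 20 other peaks of the locus held 7 luminal-higher and 12 basal-higher sites in ducts, and 4 and 7 in TEBs (4 basal-higher with filterByExpr). In ducts they were 4 and 9 with DESeq2 or with a replicate block, and 6 and 9 without luminal duct replicate 2. Their sum was lower in luminal cells, with a luminal over basal ratio of 0.553 in ducts and 0.708 in TEBs, against 5.78 and 4.23 at the promoter.

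Rgs20 (1:4909576-5070285, minus strand) had luminal-higher peaks on both sides of its internal promoter. Of 12 other peaks, 10 were luminal-higher and 1 basal-higher in ducts, and 3 were luminal-higher in TEBs. These counts include the peaks at +49.9 and +51.5 kb, which lie directly beside the promoter peak, the second at another start of the gene. Both were luminal-higher in ducts, and that at +49.9 kb also in TEBs. The intronic peak at +54.7 kb (1:5015367-5015748), the one with 4 AP-1 matches, had 0.46 and 1.23 CPM in basal duct, 1.53, 1.17 and 0.89 in basal TEB, 27.1, 25.7 and 28.4 in luminal duct and 15.4, 25.4 and 16.5 in luminal TEB. This gap, 5.12 ± 0.44 in ducts and 3.96 ± 0.28 in TEBs on the log2 scale, was wider than that of the nearby promoter. The opposite held at the 5′ start of the gene (-0.2 kb, 1:5070218-5070825), which had 13.8 and 12.0 CPM in basal duct, 5.62, 4.31 and 6.21 in basal TEB, 6.79, 6.90 and 9.89 in luminal duct and 3.29, 3.83 and 2.96 in luminal TEB. Accessibility there was lower in luminal cells, with log2 fold changes of -0.66 ± 0.19 in ducts and -0.66 ± 0.17 in TEBs, the second not called. The duct call was lost without basal duct replicate 1 and with scaling factors from start-site peaks.

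Part of the Rgs20 window belongs to a neighbour. Of the peaks counted, 5 lie in the body of Atp6v1h, a subunit of the vacuolar proton pump, and 3 of them were luminal-higher and 1 basal-higher in ducts. The peak at the TSS of Atp6v1h (-12.9 kb) had 27.0 ± 0.30 CPM in basal duct, 14 ± 0.81 in basal TEB, 22.0 ± 2.89 in luminal duct and 19.5 ± 1.55 in luminal TEB, and was not called between lineages in either structure. The strongest peak of the window, at -40.4 kb, had 47.2 ± 1.21 CPM in basal duct, 98.1 ± 26.5 in basal TEB, 79.0 ± 2.62 in luminal duct and 76.3 ± 5.14 in luminal TEB. It weighs on the sum of the 12 peaks, whose luminal over basal ratio was 1.85 in ducts and 1.07 in TEBs, against 2.58 and 2.97 at the promoter.

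Sh2d4a (8:68276567-68347699, plus strand) was mixed, with 1 site that stood out. Of 14 other peaks, 7 were luminal-higher and 3 basal-higher in ducts (5 and 1 with DESeq2, 6 and 5 with GC-dependent offsets), and 2 and 3 in TEBs. In TEBs the luminal-higher peaks were 1 without basal TEB replicate 3 or luminal TEB replicate 1, and the basal-higher ones 1 without luminal TEB replicate 2 or 3 and 0 with filterByExpr. Both directions occurred in the gene body, with 4 luminal-higher and 2 basal-higher of 7 in ducts, and upstream of it, with 3 and 1 of 7. At -34.6 kb (8:68241703-68242143), the libraries had 0.00 and 0.15 CPM in basal duct, 1.53, 0.39 and 0.00 in basal TEB, 14.2, 13.8 and 14.4 in luminal duct and 13.2, 16.7 and 19.4 in luminal TEB. Basal duct cells held 1 count there against 208 in luminal duct cells, a depth-scaled ratio of 216 with a 95% counting interval of 38.3 to 8560, and the log2 fold change in TEBs was 4.69 ± 0.63. By contrast the peak at -43.5 kb had 4.56 and 4.62 CPM in basal duct, 2.56, 5.09 and 3.55 in basal TEB, 4.03, 2.99 and 3.01 in luminal duct and 2.20, 3.01 and 3.62 in luminal TEB. The TEB groups overlapped at this site, and its log2 fold changes were -0.40 ± 0.13 and -0.38 ± 0.31, not called in either structure. Over the 14 peaks the summed ratio was 1.65 in ducts and 1.37 in TEBs, against 4.27 and 5.54 at the promoter.

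Slain1 (14:103650228-103704907, plus strand) was luminal over nearly its whole locus in ducts. Of 8 other peaks 7 were luminal-higher there and none basal-higher, whereas 2 were luminal-higher in TEBs (4 without luminal TEB replicate 1). The upstream peak at -23.1 kb (14:103626696-103627461) had 0.57 and 1.08 CPM in basal duct, 4.09, 2.74 and 2.66 in basal TEB, 22.7, 25.6 and 28.6 in luminal duct and 25.8, 24.6 and 20.7 in luminal TEB. Luminal duct and luminal TEB overlapped, while basal TEB stood above basal duct, and the lineage gap was 5.05 ± 0.30 in ducts and 2.91 ± 0.20 in TEBs on the log2 scale. Near the 3′ end of the gene, the peak at +44.2 kb had 2.85 and 2.00 CPM in basal duct, 2.56, 3.91 and 6.65 in basal TEB, 5.09, 5.41 and 5.59 in luminal duct and 2.20, 4.37 and 2.96 in luminal TEB. The lineages overlapped in TEBs there, with log2 fold changes of 1.17 ± 0.22 in ducts and -0.47 ± 0.44 in TEBs. The sum of the 8 peaks was 6.91 times higher in luminal than in basal duct cells and 2.92 times in TEBs, against 3.94 and 5.70 at the promoter.

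Svip (7:51997171-52006018, minus strand) is short, and no peak other than its promoter lay in its body. Of its 5 other peaks, 4 lie in the body of Gas2, a gene of a protein bound to actin and microtubules, and which gene they act on was not tested. All 5 were luminal-higher in ducts, but 2 were without basal duct replicate 3 and 3 without replicate 1, with DESeq2 or with GC-dependent offsets. In TEBs 1 was. That 1 was the peak at +18.5 kb, which had 0.23 and 0.15 CPM in basal duct, 2.05, 1.57 and 0.89 in basal TEB, 5.94, 4.29 and 10.7 in luminal duct and 4.67, 14.8 and 7.25 in luminal TEB. Basal duct cells held 3 counts at this site against 101 in luminal duct, a ratio of 34.9 with a 95% counting interval of 11.6 to 172, and the log2 fold change in TEBs was 2.55 ± 0.53. The other 4 were weak, and the promoter held 83.3 ± 2.09% of the CPM of the locus in luminal duct cells.

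Ccdc149 (5:52374651-52471521, minus strand) was a locus where little but the promoter was called luminal-higher. Of its 4 other peaks, none was called in TEBs, where all 4 log2 fold changes were above 0, and 1 was luminal-higher in ducts. That intronic peak, at +40 kb, had 0.57 and 0.92 CPM in basal duct, 1.53, 1.96 and 0.89 in basal TEB, 5.94, 5.60 and 7.95 in luminal duct and 3.02, 3.28 and 5.27 in luminal TEB. Luminal libraries were higher in both structures, by 3.19 ± 0.26 and 1.35 ± 0.33 on the log2 scale, though the second was not called. The peak at -5.0 kb, the strongest after the promoter, had 12.3 and 9.09 CPM in basal duct, 6.65, 6.26 and 6.21 in basal TEB, 9.75, 7.84 and 10.3 in luminal duct and 10.2, 9.29 and 12.2 in luminal TEB. The duct lineages overlapped at this site, with log2 fold changes of -0.16 ± 0.24 and 0.72 ± 0.11. Accordingly the sum of the 4 peaks had a ratio of 1.18 in ducts and 1.67 in TEBs, against 6.20 and 7.18 at the promoter, which held 70.4 ± 3.59% of the locus in luminal duct cells and 31.0 ± 1.29% in basal duct cells.

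**Figure D4:**
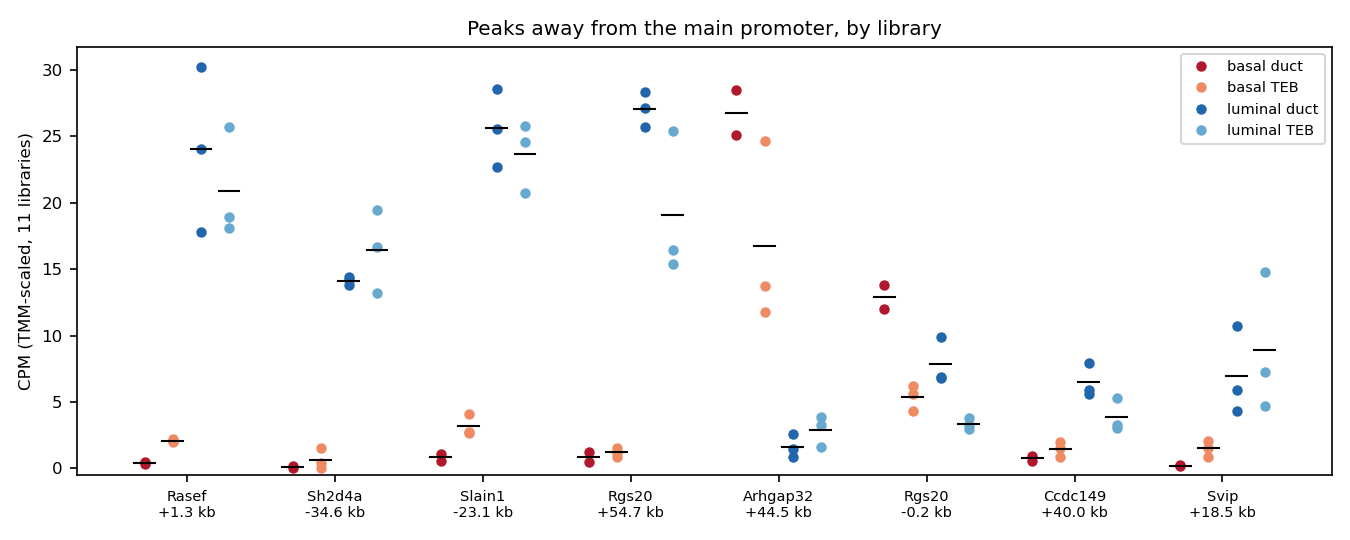
Accessibility in each of the 11 libraries (CPM, linear axis) of 8 peaks away from the luminal promoters. Points are libraries and short bars are group means. The Sh2d4a -34.6 kb peak reads 13.2 to 19.4 CPM in luminal and at most 1.53 in basal libraries, and the Arhgap32 +44.5 kb peak reads 11.8 to 28.5 CPM in basal and at most 3.84 in luminal libraries.

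Both directions occurred at every distance from the 5′ end of the gene. Of the 13 other peaks within 10 kb, 7 were luminal-higher and 3 basal-higher in ducts, of the 47 between 10 and 50 kb 30 and 11, and of the 13 beyond 50 kb 10 and 2. In TEBs the luminal-higher peaks were 5, 11 and 4 and the basal-higher ones 1, 7 and 2 in the same classes. Over all peaks of the series, 36.6% were luminal-higher and 31.8% basal-higher in ducts, and 20.8% and 16.6% in TEBs. Nothing is read from these counts about distance. The Rgs20 peaks at +49.9, +51.5 and +54.7 kb, near its internal promoter, fell in the farther classes.

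Next, TEBs were compared with ducts within each lineage, a contrast that the choice of genes did not use, although its libraries are shared with the lineage contrasts. These p-values measure only the spread between the pools. In luminal cells, 3 of the 80 peaks fell from ducts to TEBs and none rose, beside 0.455% and 0.311% of all peaks. The log2 accessibility of the Svip promoter fell by 0.62 ± 0.13 (edgeR adjusted p = 0.0064), though the call was lost without luminal duct replicate 2, luminal TEB replicate 1 or luminal TEB replicate 3 (adjusted p of 0.073, 0.058 and 0.11). The Rasef promoter fell by 0.54 ± 0.13 (edgeR adjusted p = 0.043), a call kept in 5 of 12 alternatives and lost without any of luminal duct replicates 1, 2 and 3 or luminal TEB replicates 1 and 3. The 5′ start of Rgs20, at -0.2 kb, fell by 1.21 ± 0.19 (edgeR adjusted p = 0.031), kept in 5 of 11 and lost without the same libraries. In total no peak of the 80 was called without luminal duct replicate 2, luminal TEB replicate 1 or luminal TEB replicate 3, and 1 was without luminal duct replicate 1. The other 5 promoters changed between -0.52 and -0.08 on the log2 scale and were not called, beside a median of -0.16 over the promoters of the genome.

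In basal TEB against basal duct, 8 of the 80 peaks rose and 4 fell, beside 8.22% and 9.73% of all peaks. Of the 7 main promoters 2 were among the 12, and of the 73 other members 10. None of the 12 was called without basal duct replicate 1, and 2 were without replicate 3 (the Svip promoter and Arhgap32 -36.7 kb). In either case 1 basal duct library is left, which is assumed to vary like the basal TEB libraries, and the calls over all peaks also dropped, from 12605 up and 14924 down to 985 and 1017 without replicate 1 and to 1674 and 3688 without replicate 3. Without replicate 1 and without replicate 3, the log2 fold change was -1.42 and -1.60 at the Svip promoter and 3.97 and 3.82 at Arhgap32 -36.7 kb. All 4 that fell were at start sites. On the log2 scale, the Svip promoter fell by 1.52 ± 0.17 (edgeR adjusted p = 6.7e-05), lost without basal duct replicate 1 (0.091). The 5′ start of Rgs20 fell by 1.27 ± 0.17 (edgeR adjusted p = 0.0085), the start of Atp6v1h by 0.95 ± 0.05 (edgeR adjusted p = 0.014) and the Slain1 promoter by 0.90 ± 0.20 (edgeR adjusted p = 0.042, kept in 1 of 11 alternatives). Over the genome 34.9% of promoters fell and 0.604% rose, with a median of -0.65, and the luminal marker promoters fell in 4 of 7 cases.

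None of the 8 peaks that rose in basal TEB was at a start site. At Rasef +40.8 kb, in an exon, the libraries had 0.23 and 0.00 CPM in basal duct and 1.02, 1.96 and 5.32 in basal TEB, against 7, 8.77 and 6.66 in luminal duct and 3.84, 4.37 and 6.26 in luminal TEB. Of the basal TEB libraries, only replicate 3 reached the range of luminal TEB. Basal TEB stood above basal duct there by a log2 difference of 4.17 ± 0.64 (edgeR adjusted p = 0.0038). Counts went from 2 in basal duct to 19, a ratio of 21.4 with a 95% counting interval of 5.17 to 190. The call was lost without basal duct replicate 1 (0.32), basal duct replicate 3 (0.21) or basal TEB replicate 3 (0.059). The Arhgap32 peak at -36.7 kb rose by 3.90 ± 0.37 (edgeR adjusted p = 6.5e-05), from 0.34 and 0.31 CPM to 8.18, 3.13 and 4.88, and was lost without basal duct replicate 1 (0.072). It thereby stood above both luminal groups, whose libraries had 0.85 to 2.31 CPM.

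The remaining rises were at Sh2d4a and Rgs20. At Sh2d4a +26.2 kb, basal TEB had 5.62, 2.74 and 4.88 CPM against 0.68 and 0.15 in basal duct, a rise of 3.20 ± 0.53 (edgeR adjusted p = 0.0012). At Sh2d4a -49.6 kb, it had 7.16, 3.52 and 3.99 CPM against 0.80 and 0.46, a rise of 2.84 ± 0.36 (edgeR adjusted p = 0.0012). Both groups of libraries were separate at both sites, and both calls were lost without basal duct replicate 1 (0.14 and 0.20) or replicate 3 (0.15 and 0.19). The other 2 Sh2d4a peaks that rose, at -35.1 and +13.0 kb, held 3 and 2 counts in basal duct. Inside Atp6v1h, the -40.4 kb peak of the Rgs20 window had 126, 94.3 and 73.6 CPM in basal TEB against 48.1 and 46.4 in basal duct, a rise of 1.05 ± 0.23 (edgeR adjusted p = 0.0035), lost without basal duct replicate 1 (0.24) or 3 (0.20). Its neighbour at -41.8 kb rose by 1.41 ± 0.59 (edgeR adjusted p = 0.0046), but basal TEB replicate 1 alone had 51.6 CPM against 14.9 and 15.5 in the others, and the call was lost without it (0.23) and without basal duct replicate 1 or 3 (0.12 in both cases).

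**Figure D5:**
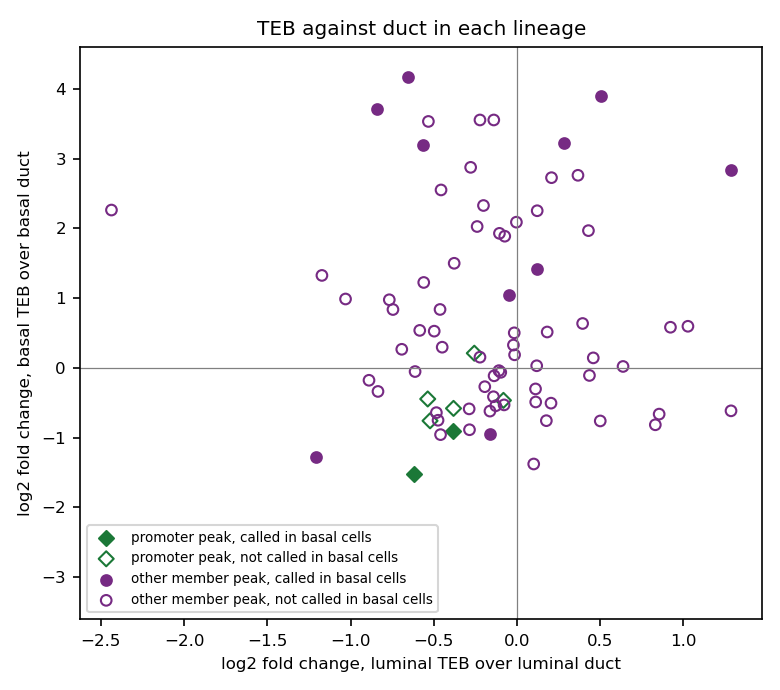
TEB over duct log2 fold change of each member peak in basal cells (vertical) against that in luminal cells (horizontal). Each point is 1 of the 80 peaks, diamonds are promoters, circles the others, filled symbols were called in basal cells, and 0 means no difference between structures. In luminal cells no peak rose past the test, while in basal cells 8 peaks away from start sites rose and 4 start-site peaks fell.

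The balance of rises and falls between basal TEB and basal duct depended on the scaling, while none of the 12 called members changed sign. The median of all start-site peaks was -0.64 and that of other peaks 0.15 on the log2 scale in basal TEB against basal duct. With scaling factors taken from start-site peaks alone, the median of all peaks moved by 0.65 and 13 members rose and 1 fell, beside 21927 and 2393 of all peaks in place of 12605 and 14924. In luminal cells the same scaling moved the median by 0.15, and 1 member rose and 1 fell, beside 1326 and 329 of all peaks in place of 477 and 698. The share of counts at start sites, the depth and the luminal marker promoters, all given above, were each lower in basal TEB than in basal duct libraries, and their part in these changes was not tested.

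Whether the luminal against basal gap itself differed between structures was tested by the interaction term over the 11 libraries, which is negative where the luminal over basal log2 fold change was lower in TEBs than in ducts. Of the 71 members tested, 11 were negative and 1 positive at FDR 0.05 (edgeR quasi-likelihood test), beside 7.51% and 6.5% of the 126832 peaks tested. They fell to 4 without basal duct replicate 1 and 7 without replicate 3. All 11 negative ones lay away from promoters: 4 in the Rgs20 window, 2 each at Rasef, Sh2d4a and Slain1, and 1 at Arhgap32. In 6 of them the fold change was smaller in TEBs but kept its sign, and in 5 (Rgs20 -40.4 and -41.8 kb, Sh2d4a +26.2 kb, Arhgap32 -36.7 kb and Slain1 +44.2 kb) it went from above 0 in ducts to below 0 in TEBs. Of these, Sh2d4a +26.2 kb and Arhgap32 -36.7 kb were called basal-higher in TEBs. At Rgs20 -40.4 kb (-0.355), Rgs20 -41.8 kb (-0.747) and Slain1 +44.2 kb (-0.47) the lineages overlapped in TEBs and were not called. The median interaction of the 73 other members, without the 9 not tested, was -0.59, beside -0.04 over all peaks and -0.20 over peaks away from start sites. Among them, those at Rasef +40.8 kb (-4.87, edgeR adjusted p = 0.00028) and Rgs20 -40.4 kb (-1.17, edgeR adjusted p = 0.0017) were kept in 15 of 15 alternatives. The 1 positive term was at the Svip promoter (0.82, edgeR adjusted p = 0.047), where the gap was wider in TEBs. This term is built from the promoter lineage differences that chose the gene, so its p-value is not free of that choice. It was kept in 4 of 15 alternatives.

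Outside the 7 genes, the promoter peaks most like them were sought by Pearson's r with the mean of their 7 centred log2 CPM profiles, over the 11 libraries and 6866 promoter peaks above the median promoter level. The 5 most alike were Foxa1 (r = 0.985), a pioneer transcription factor of luminal cells, the claudin genes Cldn8 (0.983) and Cldn3 (0.982), whose proteins form tight junctions, Slc25a23 (0.976), a mitochondrial carrier, and Csf2ra (0.975), the alpha chain of the GM-CSF receptor. The 11 libraries fall into 4 groups and are not independent points. The Foxa1 promoter had 10.7, 5.26, 55.9 and 55.4 CPM on average in basal duct, basal TEB, luminal duct and luminal TEB.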

How the data were processed

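Accessibility was measured by ATAC-seq in 11 libraries of 4 groups taken from the sample labels. Per the methods and labels, the authors mapped reads to mm10 with Bowtie2, removed duplicates, called peaks with MACS2 on pooled replicates, merged overlapping peaks with bedtools and subtracted those in blacklisted regions. The deposited files hold raw read counts per merged peak and library, obtained in SeqMonk. Of 153682 peaks listed, 286 on scaffolds have no counts. A further basal duct sample, which the authors discarded because it held few cells, is not analysed here. Because peaks were called on pooled replicates, a peak is not evidence of a site in each library.

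Peaks were placed on GRCm38 with GENCODE vM21 (41421 protein-coding TSSs). A gene's TSS was the 5′ end of its record. Its promoter peak was the member peak within 500 bp of one of its protein-coding TSSs with the highest mean log2 CPM. Pairs of groups were compared in R 4.3.3 by edgeR's classic exact test (version 4.0.16; TMM factors and dispersions within the pair, all peaks with a count, Benjamini-Hochberg over all peaks, FDR 0.05), and the interaction with the edgeR quasi-likelihood test on peaks past filterByExpr. The biological coefficient of variation was 0.126 and 0.242 for the lineages in ducts and TEBs, and 0.134 and 0.268 for TEB against duct in luminal and basal cells. SEs were taken between libraries after log2 CPM (prior count 2), and the prior narrows them at peaks with few counts. Intervals and floors cover counting error only. Motifs were exact letter matches on both strands of central 300-base windows, and promoter sequences came from RefSeq. Tests were checked on simulated data.

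The members, gene lists and tests were chosen with earlier results of these data known. Peaks described singly were the promoter, the largest and smallest duct lineage difference among the other peaks above the median level, peaks at another gene's TSS, and up to 2 peaks per gene and TEB contrast with the smallest p. The Arhgap32 5′ start, the Arhgap32 and Sh2d4a stretches, the Rasef peaks at 0 and the Sh2d4a +13.0 and -23.0 kb and Svip -32.1 kb peaks were picked after their values were seen. Promoters of 5 lists of related genes were counted (relatives of Rasef, RGS, SH2 adaptor, microtubule plus-end and VCP/ERAD genes), beside markers of 6 cell types, and a further list is not reported here. Alternatives were DESeq2 1.42.0, the quasi-likelihood test, filterByExpr or no filter, TMM factors from TSS peaks, library size alone for the promoter values, GC-dependent offsets in 20 bins, a replicate block, other distance rules and leaving out each library.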

Additional observations from a re-analysis of the deposited data

Results flagged for a closer look

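At 12 member peaks the luminal over basal difference was not the same in TEBs as in ducts by the interaction term of the edgeR quasi-likelihood test, with values on the log2 scale. Described here are at most 2 of them a gene, those with the smallest p, and the other 2 were Rgs20 -2.2 kb (-1.84, adjusted p = 0.017) and Rgs20 -41.8 kb (-1.34, adjusted p = 0.020), both inside Atp6v1h. P-values were adjusted over all peaks tested, and all terms share the same libraries. At Rasef +40.8 kb the term was -4.87 (adjusted p = 0.00028), and at Rasef +1.3 kb it was -2.59 (adjusted p = 0.011, lost without basal duct replicate 1, 0.064, or 3, 0.057). Sh2d4a +26.2 kb had -3.85 (adjusted p = 0.0094, lost without basal duct replicate 3, 0.058), and there the lineage difference was 1.54 ± 0.51 in ducts and -2.28 ± 0.43 in TEBs. Sh2d4a -35.1 kb had -3.01 (adjusted p = 0.021, lost without basal duct replicate 1, 0.18, or basal TEB replicate 1, 0.062).

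Arhgap32 -36.7 kb had -3.47 (adjusted p = 0.0095, lost without basal duct replicate 1, 0.064), and the lineage difference there was 2.05 ± 0.23 in ducts and -1.42 ± 0.38 in TEBs. Slain1 -23.1 kb had -2.12 (adjusted p = 0.0087, lost without basal duct replicate 1, 0.13) and Slain1 +44.2 kb -1.66 (adjusted p = 0.049, kept in 4 of 15 alternatives). In the Rgs20 window, the term was -1.17 at -40.4 kb (adjusted p = 0.0017), inside Atp6v1h, and -3.20 at +93.6 kb (adjusted p = 0.013, lost without basal duct replicate 1, 0.060, basal duct replicate 3, 0.065, or basal TEB replicate 2, 0.062). The Svip promoter alone was positive, at 0.82 (adjusted p = 0.047, kept in 4 of 15 alternatives). That term is built from the promoter lineage differences that chose the gene, so its p-value is not free of the choice.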

How the results depend on the processing

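The differences of single peaks recomputed under each alternative kept their direction, and among all called member peaks the scaling alternatives changed the sign only of the weak duct differences at Svip -32.1 kb and Sh2d4a -23.0 kb, under GC-dependent offsets. In ducts the member peaks higher in luminal cells were 54 of 80, and 45 to 55 under the alternatives on the same peaks, with 45 to 51 on leaving out 1 library. With the other distance rules they were 43 of 66 and 55 of 81. In TEBs they were 27, and 20 to 29. Of the member peaks changed between luminal TEB and luminal duct (3), 5 were called with a replicate block and 0 to 4 without 1 library. Of those changed between basal TEB and basal duct (12), 7 were called with DESeq2 and 7 with filterByExpr, and 0 to 14 without 1 library. The interaction gave 12, and 4 to 15 without 1 library. Replicate numbers showed little pairing over all groups: deviations of same-numbered libraries correlated at -0.03 to 0.06, against -0.05 to 0.04 for others. Between luminal duct and luminal TEB, however, same-numbered libraries correlated at 0.03, 0.06 and 0.05, and the others at -0.05 to -0.002. Pairing of these luminal libraries was therefore not excluded. The block gave 47 and 26 luminal-higher members in ducts and TEBs, 14 for basal structure and 12 for the interaction. Over all peaks, luminal TEB against duct moved from 477 up and 698 down to 21 and 451 with DESeq2, 968 and 1066 with filterByExpr, 1049 and 1702 with the block and 331 and 515 with GC-dependent offsets. Basal TEB against duct moved to 9639 and 5890 with DESeq2 and 9763 and 6821 with filterByExpr, the interaction from 8249 and 9528 to 3583 and 7623 with DESeq2, and the TEB lineage contrast from 31873 and 25518 to 23369 and 16915 with DESeq2 and 21903 and 19989 with filterByExpr, while GC-dependent offsets gave 27445 and 27957, with more peaks lower than higher in luminal cells. Start-site scaling gave 65208 and 37825 in the duct lineage contrast in place of 56133 and 48705, and 3447 and 15922 in the interaction, and moved its median by -0.39 and that of the duct contrast by 0.32. The promoter differences moved by less than 1 SD in 87 cases and by more in 18, over all 7 genes and both structures. The settings counted here were library size alone, start-site scaling and leaving out each library. The median peak had 6 counts in a basal TEB library. In counts simulated with the depth and variation of each contrast, 50 peaks were set 4-fold up and 50 down. The exact test recovered 47 up and 29 down in the duct lineage contrast, and 36 and 9 in the TEB one. For TEB against duct it recovered 47 and 33 in luminal cells, and 12 and 12 in basal cells, where 0 of 50 were recovered at 2-fold up. Far fewer peaks were changed in the simulation than were called in the data, and they were drawn from better covered peaks. The FDR cutoff was therefore stricter there, and these counts are not the recovery rates of the real tests. Depth and variation were not varied separately, so how far depth alone limits the TEB calls was not tested.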

Other observations

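Promoters of genes related to the members were counted by direction. Of 9 Rab and calcium-binding relatives of Rasef, 4 were luminal-higher and 3 basal-higher in ducts, and 6 and 1 in TEBs. Cracr2b, which like Cracr2a regulates calcium release-activated channels, had 2.95 on the log2 scale in ducts and 1.52 in TEBs, Cracr2a 1.24 and 1.19, and Rab44 -1.54 and -1.13. Of 13 measured RGS genes, 1 was luminal-higher (Rgs3, 1.62) and 7 basal-higher in ducts, and 2 and 1 in TEBs. Of 5 SH2 adaptors, none was luminal-higher and 4 were basal-higher in ducts, and none and 2 in TEBs. Of 9 microtubule plus-end genes, none was luminal-higher and 4 were basal-higher in ducts (Mapre3, -1.60), and 1 each way in TEBs, while Slain2, the paralogue of Slain1, was not called (0.18 in ducts and -0.02 in TEBs). Of 12 VCP and ERAD genes, 1 was luminal-higher and 5 basal-higher in ducts, and none and 1 in TEBs, while Vcp itself was not called (0.12 and -0.30). The shares over all promoters were 11.3% and 43.7% in ducts and 15.1% and 9.72% in TEBs.

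The Arhgap32 internal promoter had an unusual base composition for a start-site peak. Its GC content was 46.7%, and 4.1% of the 16630 start-site peaks were lower, while that of the Slain1 promoter was 70.1%, above 93.0% of them. The median of all start-site peaks was 60.0%.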
